A study of Mus with 10 samples.

Results

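*Myo10* and 8 further unconventional myosin genes (*Myo1c*, *Myo1e*, *Myo1f*, *Myo1g*, *Myo5a*, *Myo6*, *Myo9b* and *Myo18a*) were followed in type 1 innate lymphoid cells (ILC1s) of mouse liver with and without the receptor NKp46. These 9 genes were taken by their names from the 24564 genes of the deposited count table, and each of them was among the 11463 genes with enough reads to be tested. They were selected on values from these same libraries, namely the expression difference between the genotypes, in which *Myo10* had been seen to be higher without NKp46. The genotype differences of the 9 genes are therefore given as a description, without a p-value.

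ILC1s are lymphocytes that reside in tissues, and *Ncr1* encodes NKp46, an activating receptor on their surface. The study compared 5 libraries of ILC1s from Ncr1+/+ mice with 5 from Ncr1gfp/gfp mice, in which *gfp* replaces *Ncr1* so that the cells largely lack the receptor and carry GFP from its locus. In the paper, a small share of Ncr1gfp/gfp ILC1s still stained for NKp46. All mice were on the C57BL/6 background, of either sex and 6 to 8 weeks old, and the cells were sorted fresh from the liver. Cells without lineage markers that were NK1.1+, CD49a+ and CD49b- were sorted, with NKp46 antibody in the Ncr1+/+ and with GFP in the Ncr1gfp/gfp mice, so that the gate differed along with the genotype and the contribution of each cannot be told apart. Whether each library stands for 1 mouse or for pooled RNA was not clear, so the spread between libraries may be partly technical.

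Myosins are motor proteins that hydrolyse ATP to pull on actin filaments. The conventional, class II myosins assemble into contractile filaments, while the unconventional classes work as single motors or pairs that bind membranes, carry cargo or hold actin to the cell surface. In lymphocytes these motors are known for tethering the plasma membrane to cortical actin, for cell migration and for moving vesicles and granules, and *Myo10* encodes the motor that travels to the tips of filopodia.

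Total counts were between 17996935 and 22623133 per Ncr1+/+ library and between 15796253 and 21975879 per Ncr1gfp/gfp library. Counts were scaled to CPM (read counts relative to the library total) with the trimmed mean of M-values (TMM) method, and 3 counts corresponded to between 0.132 and 0.190 CPM. *Ncr1* itself was between 1913 and 2144 CPM in the Ncr1+/+ libraries and between 141 and 356 CPM in the Ncr1gfp/gfp libraries, so each library matched its label. Reads of *Ncr1* were not absent from the Ncr1gfp/gfp libraries, whose mean was 12.75% of the Ncr1+/+ mean. The ILC1 markers summed to between 3790 and 4136 CPM across the 10 libraries. The 8 hepatocyte markers summed to 64.4 CPM in Ncr1gfp/gfp replicate 3 and 33.1 CPM in Ncr1+/+ replicate 1, and to between 1.81 and 5.91 CPM in the others.

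Among the 9 myosins, *Myo10* and *Myo5a* were higher in Ncr1gfp/gfp ILC1s without overlap of the genotypes, and the other 7 genes did not meet the rule for a call. A gene was called when edgeR's quasi-likelihood test gave a Benjamini-Hochberg adjusted p under 0.05 over all tested genes together with a fold change above 1.5 or below 0.7. By that rule 2 of the 9 genes were called, both higher, against 0.733% of all tested genes called in either direction (84 genes) and 0.201% called higher (23 genes). The same 2 genes had values that did not overlap between genotypes, as did 3.11% of all tested genes (356 genes). Because the 9 genes were chosen from this contrast, nothing is read from these shares. The median log2 fold change was 0.06 over the 9 genes and 0.00 over all tested genes.

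**Figure D1:**
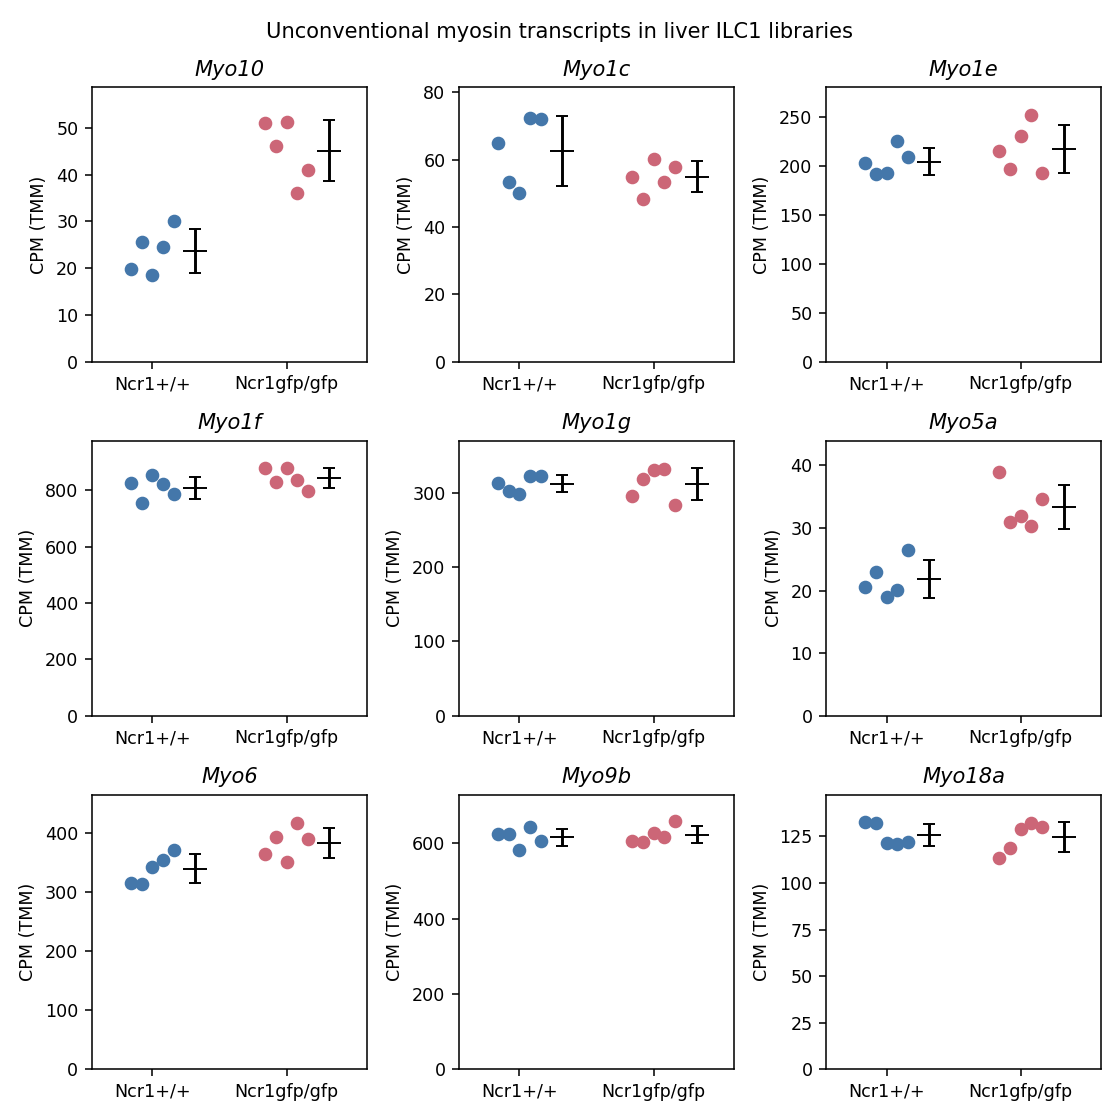
CPM (TMM-scaled read counts relative to the library total, vertical axes from 0) of the 9 unconventional myosins in 5 Ncr1+/+ (blue) and 5 Ncr1gfp/gfp (red) liver ILC1 libraries, in replicate order from left to right. Each point is 1 library, and the black bars give the mean and SD. The genotypes are separate for *Myo10* and *Myo5a* and overlap for the other 7 genes.

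*Myo10*, whose product carries a tail that binds phosphoinositides and integrins and which elongates filopodia, is listed on chromosome 15 (plus strand) from 25552305 to 25743426, with an exon length of 8509 bases. Which genome build these coordinates refer to is not named in the deposited table. The gene had 803, 1010, 969, 607 and 690 counts in Ncr1gfp/gfp replicates 1 to 5 and 353, 580, 370, 485 and 553 counts in Ncr1+/+ replicates 1 to 5. After scaling, these were 51.0, 46.2, 51.3, 36.1 and 41.1 CPM in the Ncr1gfp/gfp libraries and 19.8, 25.6, 18.5, 24.5 and 30.1 CPM in the Ncr1+/+ libraries. The lowest Ncr1gfp/gfp library, replicate 4, was above the highest Ncr1+/+ library, replicate 5. The mean was 45.1 ± 6.55 CPM in Ncr1gfp/gfp against 23.7 ± 4.67 CPM in Ncr1+/+ ILC1s (SD, n = 5 each), which gave a log2 fold change of 0.93 (standard error, SE, 0.13) and a 1.91-fold difference with a 95% interval of 1.58 to 2.30. Of all tested genes, 99.2% had a lower log2 fold change.

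*Myo5a* encodes the motor that carries melanosomes and other vesicles along actin toward the cell edge, often through Rab GTPases and their adaptors. It is listed on chromosome 9 (plus strand) from 74919013 to 75071494, with an exon length of 11683 bases. Its CPM was 38.9, 30.9, 31.9, 30.4 and 34.6 in Ncr1gfp/gfp replicates 1 to 5 and 20.6, 22.9, 19.0, 20.1 and 26.6 in Ncr1+/+ replicates 1 to 5. Every Ncr1gfp/gfp library again exceeded every Ncr1+/+ library, with replicate 1 the highest of its genotype and replicate 5 the highest of the Ncr1+/+ libraries. The mean was 33.4 ± 3.52 CPM against 21.8 ± 3.00 CPM (SD, n = 5 each), which gave a log2 fold change of 0.61 (SE 0.11) and a 1.53-fold difference, with a 95% interval of 1.29 to 1.80. This fold lies just above the threshold of 1.5, and the call was lost when Ncr1gfp/gfp replicate 1, Ncr1+/+ replicate 3 or Ncr1+/+ replicate 4 was left out, with log2 fold changes of 0.55, 0.56 and 0.58. *Myo10* kept its call whichever of the 10 libraries was left out, with log2 fold changes from 0.85 to 1.03.

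The summed markers of NK cells and of T cells were higher in Ncr1gfp/gfp than in Ncr1+/+ libraries, as were *Myo10* and *Myo5a*. Within Ncr1gfp/gfp, *Myo10* was highest in replicates 3 and 1, at the near values of 51.3 and 51.0 CPM. The NK cell sum was highest in replicate 1, and both it and *Myo10* were lowest in replicates 5 and 4. The T cell sum was highest in replicate 2 and lowest in replicate 5. The 5 NK cell markers summed to 210.5, 176, 154, 136 and 139 CPM in Ncr1gfp/gfp replicates 1 to 5 and to 101, 99.8, 106, 98.8 and 119.7 CPM in Ncr1+/+ replicates 1 to 5, without overlap. Of these markers 1 was called, *Itgam*, at 96.0 ± 18.7 against 49.4 ± 6.50 CPM (SD, n = 5 each), and it made up most of the difference in the sum. The other 4 were not called. Of these, *Itga2*, which encodes CD49b, had a log2 fold change of 0.27, while *Eomes*, a transcription factor of NK cells, was at 10.2 ± 4.88 against 7.10 ± 1.08 CPM, *Klra8* at 4.11 ± 1.64 against 3.41 ± 2.03 CPM and *S1pr5* at 3.76 ± 1.64 against 4.64 ± 0.652 CPM. No marker of the list was at 0 in every library. The summed NK cell markers had a Pearson's r of 0.901 with *Myo10* on the log2 scale over the 10 libraries and 0.561 after the genotype means were taken off.

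The 7 T cell markers summed to between 633 and 835 CPM in Ncr1gfp/gfp and between 461 and 579 CPM in Ncr1+/+ libraries, also without overlap. Most of this was *Cd3g*, at 687 ± 74.6 against 501 ± 53.1 CPM, while the called markers *Cd3e* and *Cd8a* were at 21.1 ± 12.7 against 5.72 ± 1.71 CPM and 19.4 ± 9.96 against 6.69 ± 3.31 CPM (SD, n = 5 each). The log2 fold change of *Cd3g* was 0.45 (adjusted p = 0.00169 by edgeR's quasi-likelihood test), and only the fold threshold kept it from a call. *Cd3d* was at 13.7 ± 5.78 against 6.62 ± 2.06 CPM and *Cd4* at 2.31 ± 1.64 against 1.95 ± 0.953 CPM, and neither was called. *Cd5* and *Cd8b1* had too few reads to be tested, at 0.919 against 0.121 CPM and 0.0106 against 0.305 CPM. The sum had r = 0.863 with *Myo10*, and 0.383 after the genotype means were taken off. No gene of the T cell list was at 0 in every library.

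The part of NK cell and T cell transcripts in the *Myo10* and *Myo5a* differences was not tested. In bulk RNA, fewer cells of a type and less RNA per cell cannot be told apart. Markers of B cells, macrophages, neutrophils, hepatocytes, endothelial cells, stellate cells, cholangiocytes and ILC2s or ILC3s overlapped between genotypes. The highest macrophage sum was 44.8 CPM, in an Ncr1+/+ library, and the defining markers *Lyve1*, *Krt19*, *Sox9*, *Il22* and *Retnlg* were at 0 in every library. With both libraries of high hepatocyte markers left out, *Myo10* and *Myo5a* had log2 fold changes of 0.82 and 0.60, and both were still called.

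**Figure D2:**
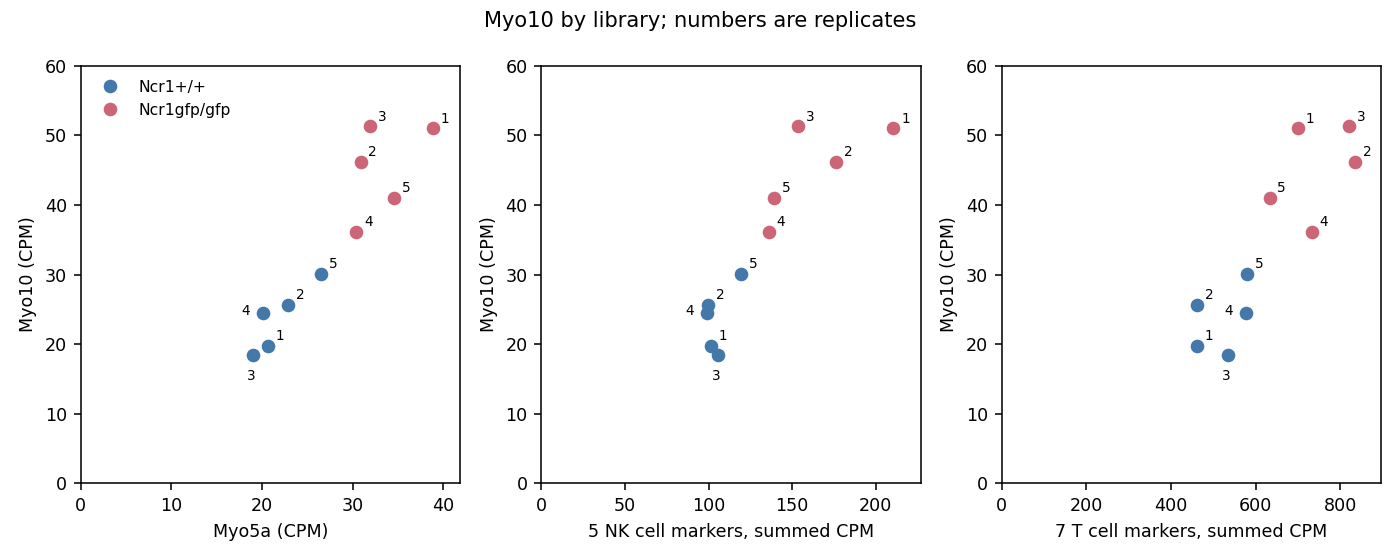
*Myo10* CPM (vertical axes) against *Myo5a* CPM, the summed CPM of 5 NK cell markers and the summed CPM of 7 T cell markers in 5 Ncr1+/+ (blue) and 5 Ncr1gfp/gfp (red) libraries, with replicate numbers beside the points. The genotypes are separate on every axis. Ncr1+/+ replicate 5, at 30.1 CPM of *Myo10*, has the highest value of its genotype on each axis.

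*Myo6* encodes the only myosin known to walk toward the minus end of actin filaments, which serves endocytosis and autophagy. Of the 7 genes that were not called, it had the log2 fold change farthest above 0, although a smaller one than *Myo5a*. Its CPM was 364, 392, 350.3, 417 and 389 in Ncr1gfp/gfp replicates 1 to 5 and 315, 313, 342, 354 and 369.9 in Ncr1+/+ replicates 1 to 5. Only 3 of the 5 Ncr1gfp/gfp libraries lay above every Ncr1+/+ library. The log2 fold change was 0.17 (SE 0.06), which is 1.13-fold with a 95% interval of 1.03 to 1.23 that is not adjusted for the number of genes. *Myo6* is listed on chromosome 9 from 80012841 to 80159536, 4.94 Mb beyond the end of *Myo5a*.

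The class I myosins are short-tailed motors that link membranes to actin, and none of the 4 measured here was called. *Myo1f*, which is found mainly in blood cells, and *Myo1g*, which sits at the plasma membrane of lymphocytes, had 845 ± 35.0 and 313 ± 21.5 CPM in Ncr1gfp/gfp against 809 ± 38.1 and 313 ± 11.1 CPM in Ncr1+/+ libraries (SD, n = 5 each). *Myo1e*, a motor found at sites of endocytosis and adhesion, had 217 ± 24.6 against 204 ± 13.7 CPM. *Myo1c*, which helps insert vesicles into the plasma membrane, was the one gene of the 9 with an estimate well below 0, at 54.9 ± 4.55 against 62.6 ± 10.3 CPM and a log2 fold change of -0.19 (SE 0.10). Its Ncr1+/+ libraries fell between 50.3 and 72.3 CPM and so enclosed all but 1 of the Ncr1gfp/gfp libraries, which ran from 48.4 to 60.3 CPM.

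*Myo9b* encodes a motor that also switches off RhoA through a GAP domain, and *Myo18a* a myosin with little motor activity that is found at the Golgi and in actomyosin bundles. They had 623 ± 22.5 and 125 ± 8.15 CPM in Ncr1gfp/gfp against 616 ± 22.9 and 126 ± 6.01 CPM in Ncr1+/+ libraries (SD, n = 5 each). Their folds were 1.01 with a 95% interval of 0.946 to 1.08 and 0.993 with a 95% interval of 0.905 to 1.09. Across the 7 genes that were not called, the 95% intervals of the fold lay between 0.757 and 1.23, and those of 6 genes held a fold of 1.

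**Figure D3:**
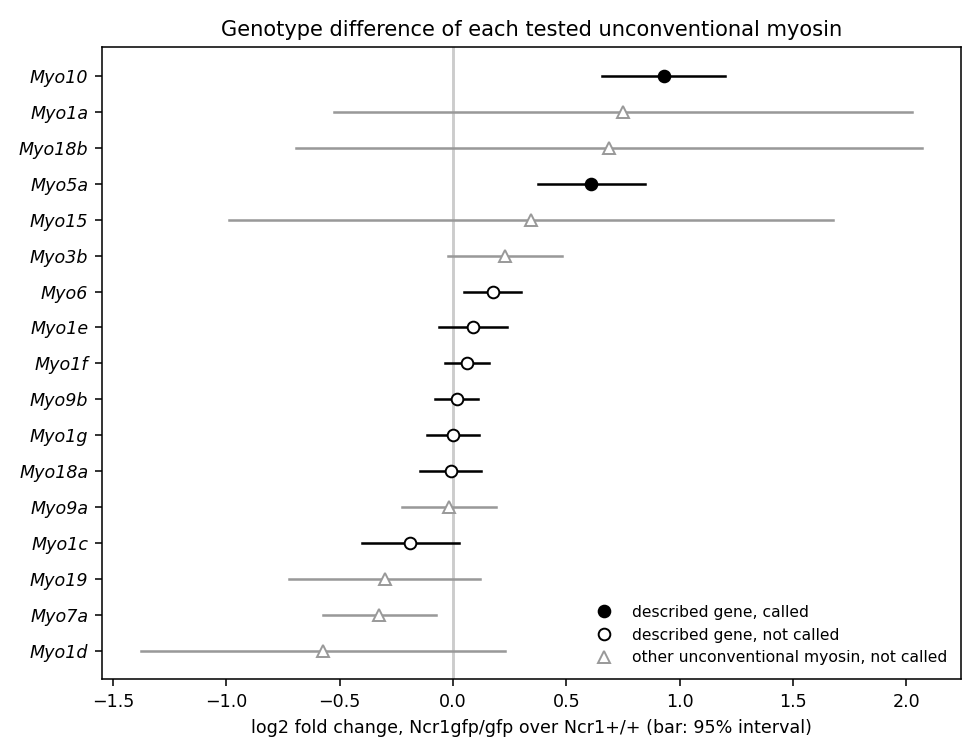
Log2 fold change of Ncr1gfp/gfp over Ncr1+/+ ILC1s (horizontal axis) for each tested unconventional myosin, with 95% intervals from edgeR's fit. Circles are the 9 described genes, filled where called, and grey triangles are the other tested unconventional myosins. *Myo10* at 0.93 and *Myo5a* at 0.61 are the called genes, and the intervals of *Myo1a*, *Myo18b*, *Myo15* and *Myo1d* are wide.

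The 9 genes are scattered over the genome, except that chromosome 9 holds *Myo1e*, *Myo5a* and *Myo6* and chromosome 11 holds *Myo1c*, *Myo1g* and *Myo18a*. *Myo1f* is listed on chromosome 17, from 33692652 to 33744709, and *Myo9b* on chromosome 8, from 73796613 to 73884611. None of the 9 overlaps another gene of the table, and none lies on chromosome 7 with *Ncr1*.

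The precision differed between the genes. The *Myo10* CPM had a coefficient of variation of 14.5% in Ncr1gfp/gfp and 19.7% in Ncr1+/+ libraries, and that of *Myo5a* was 10.6% and 13.7%, whereas counting error alone would give 3.95% and 4.41%. *Myo1f* varied by 4.14% and 4.71% and *Myo9b* by 3.62% and 3.71%. The *Myo1f* counts of 13410 to 18183 per library exceeded those of *Myo10*, 353 to 1010, and of *Myo5a*, 368 to 676, by more than 10 times. For *Myo10* and *Myo5a* the spread between libraries, rather than the depth, set most of the error.

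To compare levels between genes, CPM was divided by exon length (read counts per length and depth, RPKM). *Myo1f* had the highest level at 220.5 RPKM in Ncr1gfp/gfp and 211 RPKM in Ncr1+/+ ILC1s, above 98.8% of all tested genes. *Myo1g* followed at 94.5 and 94.6 RPKM, and *Myo9b* at 85.3 and 84.4 RPKM. The neighbours *Myo1g* and *Myo9b* overlapped in the Ncr1gfp/gfp libraries, in 4 of which *Myo1g* was the higher.

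*Myo6* at 48.6 and 43.1 RPKM and *Myo1e* at 44.0 and 41.4 RPKM came next, and their values overlapped in both genotypes. *Myo18a* reached 16.5 and 16.6 RPKM and *Myo1c* 9.72 and 11.1 RPKM. *Myo10* and *Myo5a*, the 2 called genes, were the lowest of the 9, at 5.30 and 2.86 RPKM in Ncr1gfp/gfp and 2.78 and 1.87 RPKM in Ncr1+/+ ILC1s. In the Ncr1+/+ libraries the values of these 2 genes overlapped, although *Myo10* was higher in each of the 5. Of all tested genes, 26.4% had a lower mean RPKM than *Myo10* and 19.2% a lower one than *Myo5a*.

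The order of the 9 mean levels was the same in both genotypes. Their summed RPKM ran from 508 to 544 in Ncr1gfp/gfp and from 485 to 525 in Ncr1+/+ libraries, of which *Myo1f* and *Myo1g* made up between 57.9% and 62.1%. *Myo10* accounted for between 0.784% and 1.14% of this sum in Ncr1gfp/gfp libraries and for between 0.431% and 0.694% in Ncr1+/+ libraries. *Myo10* transcripts were therefore a small part of the summed level of these 9 genes in every library. Other myosins were not in this sum.

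**Figure D4:**
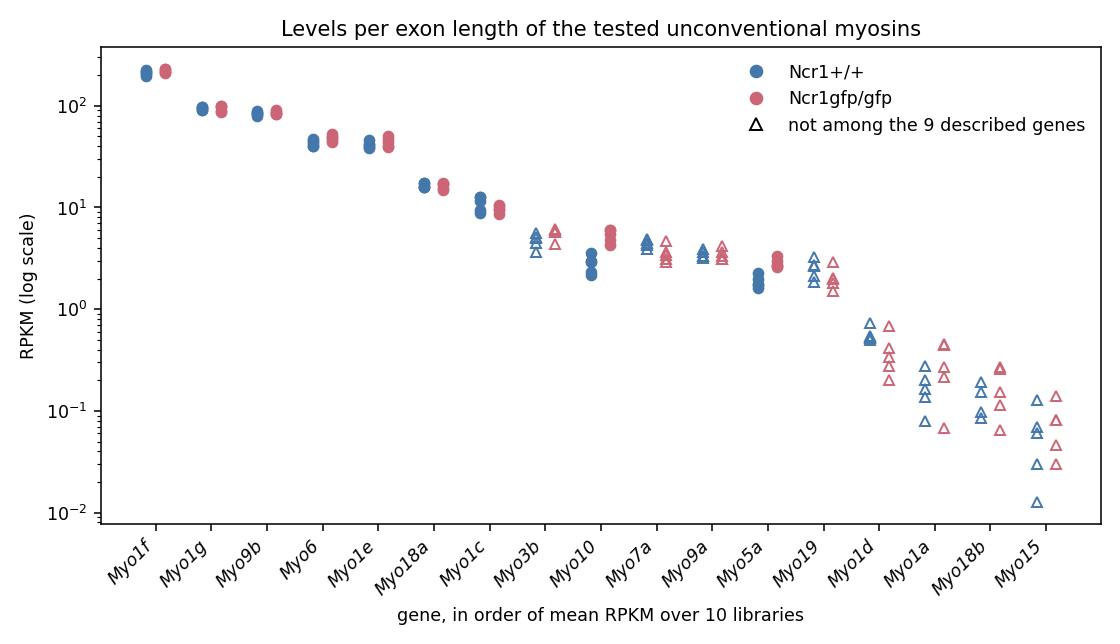
RPKM (log scale, vertical axis) of each tested unconventional myosin in order of their mean over 10 libraries, with Ncr1+/+ libraries in blue and Ncr1gfp/gfp libraries in red. Circles are the 9 described genes and triangles are the others. *Myo1f* stands highest in every library, *Myo10* lies between *Myo3b* and *Myo7a*, and *Myo5a* follows *Myo9a*.

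Other members of the superfamily were read from the same fit. Of 15 further unconventional myosins in the table, 8 passed the filter on low counts, none reached an adjusted p under 0.05 by edgeR's quasi-likelihood test, DESeq2 or limma, and 1, *Myo7a*, had an unadjusted p under 0.05 by edgeR. Their median log2 fold change was 0.11. The mean levels of *Myo3b*, *Myo7a* and *Myo9a*, at 5.19, 4.02 and 3.48 RPKM, were above that of *Myo5a*, 2.36 RPKM, so that the 9 genes do not cover every unconventional myosin found in these libraries.

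*Myo3b*, a myosin that carries its own kinase domain, had 35.1 ± 4.41 CPM in Ncr1gfp/gfp against 29.9 ± 4.80 CPM in Ncr1+/+ ILC1s (SD, n = 5 each), with a log2 fold change of 0.23 (adjusted p = 0.498 by edgeR's quasi-likelihood test). *Myo7a*, known for its part in hair cells of the inner ear, had 27.1 ± 5.26 against 34.0 ± 2.87 CPM and a log2 fold change of -0.33 (adjusted p = 0.245 by edgeR's quasi-likelihood test). *Myo9a*, a relative of *Myo9b*, had 41.4 ± 5.23 against 41.9 ± 3.60 CPM. *Myo1h*, *Myo5b*, *Myo5c*, *Myo7b* and *Myo16* had too few reads to be tested, and *Myo3a* had no reads in any library.

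The conventional myosin of these cells was *Myh9*, the heavy chain of nonmuscle myosin IIA. At 3274 ± 218 CPM in Ncr1gfp/gfp against 3203 ± 174 CPM in Ncr1+/+ ILC1s (SD, n = 5 each), it had a mean level of 435.5 RPKM, higher than *Myo1f*. Its log2 fold change was 0.03 (adjusted p = 0.872 by edgeR's quasi-likelihood test). *Myh10*, the heavy chain of nonmuscle myosin IIB, was the only other class II gene of 14 listed that was tested, at 1.52 ± 0.70 against 2.02 ± 0.842 CPM, and neither had an unadjusted p under 0.05 by edgeR or an adjusted p under 0.05 by DESeq2 or limma.

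Genes that work with the motors were examined in 7 groups, which with the further unconventional myosins held 92 tested genes. Of these 92 genes, 2 were higher and 1 was lower in Ncr1gfp/gfp ILC1s at an adjusted p under 0.05 (edgeR's quasi-likelihood test). That is 3.26% of the tested genes on the lists, against 1.35% of all tested genes (155 genes). Of the 3 genes, *Itgb3* passed the fold threshold as well, a call that was lost in 5 of 18 alternative fits. The log2 fold change was positive for 46 of the genes and negative for 46. DESeq2 and limma gave the same 3 genes an adjusted p under 0.05.

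Among the partners of *Myo10* and the genes of filopodia, 12 of 17 were tested, 1 fell and none rose at an adjusted p under 0.05. The gene that fell was *Itgb3*, which encodes integrin beta 3, a class of receptor that the *Myo10* tail can bind. Its CPM was 73.7, 59.1, 93.0, 62.8 and 84.6 in Ncr1gfp/gfp replicates 1 to 5 and 133, 85.6, 121, 99.4 and 118 in Ncr1+/+ replicates 1 to 5. The genotypes overlapped, since Ncr1gfp/gfp replicate 3 was above Ncr1+/+ replicate 2.

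The mean of *Itgb3* was 74.6 ± 14.3 CPM against 111 ± 18.8 CPM (SD, n = 5 each), and its log2 fold change was -0.58 (SE 0.12, adjusted p = 0.0141 by edgeR's quasi-likelihood test). Its fold missed the threshold by limma and without Ncr1gfp/gfp replicate 2, both with a log2 fold change of -0.50. The adjusted p of *Itgb3* rose to 0.0519, 0.0546 and 0.0522 without Ncr1gfp/gfp replicate 4, Ncr1+/+ replicate 1 and Ncr1+/+ replicate 3, respectively. The abundant members of the group were close to equal between genotypes, with 681 ± 33.0 against 682 ± 33.0 CPM for *Evl* and 472 ± 29.4 against 474 ± 35.9 CPM for *Vasp*, both of which encode proteins that protect growing actin ends, and 596 ± 30.4 against 583 ± 13.5 CPM for *Cdc42*, a GTPase that starts filopodia.

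Among 22 tested cargo adaptors of *Myo5a* and *Myo6*, 1 rose, none fell, and the median log2 fold change was -0.00. This gene was *Rab27b*, a GTPase of secretory granules that recruits myosin V through its adaptors. Its CPM was 27.2, 34.9, 38.5, 26.2 and 35.7 in Ncr1gfp/gfp replicates 1 to 5 and 28.4, 21.2, 19.2, 19.6 and 20.6 in Ncr1+/+ replicates 1 to 5. A single Ncr1+/+ library, replicate 1, reached into the range of the Ncr1gfp/gfp libraries. A further adaptor gene, *Dlg1*, had an unadjusted p under 0.05 by edgeR, with a log2 fold change of 0.13. Its values did not overlap between genotypes.

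The log2 fold change of *Rab27b* was 0.58 (SE 0.13, adjusted p = 0.0277 by edgeR's quasi-likelihood test), or 1.49-fold, which is under the fold threshold for a call. Its adjusted p was above 0.05 after leaving out any of 7 of the 10 libraries, with a highest value of 0.0881. It met the rule for a call in 5 of 18 alternative fits, among them limma with a log2 fold change of 0.67 and the fit without Ncr1+/+ replicate 1 with 0.69. The GTPase genes *Rab8a* and *Rab10* had 254 ± 13.4 against 258 ± 9.60 CPM and 179.6 ± 13.0 against 171 ± 3.66 CPM, and *Tax1bp1*, an autophagy receptor that binds *Myo6*, had 262 ± 20.2 against 255 ± 30.1 CPM (SD, n = 5 each).

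Of 14 tested kinases, phosphatase subunits and chaperones of myosin, 1 rose and none fell at an adjusted p under 0.05. A further gene, *Unc45a*, had an unadjusted p under 0.05 by edgeR, with a log2 fold change of -0.28. *Ppp1r12c*, a targeting subunit of the phosphatase that acts on myosin light chains, had 159, 158, 163, 149.6 and 159 CPM in Ncr1gfp/gfp replicates 1 to 5 and 137, 123, 144, 136 and 119 CPM in Ncr1+/+ replicates 1 to 5. The genotypes did not overlap, yet the difference was small, with a log2 fold change of 0.26 (SE 0.06, adjusted p = 0.0460 by edgeR's quasi-likelihood test). The adjusted p was above 0.05 after leaving out any of 9 of the 10 libraries, and reached 0.128.

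*Ppp1r12c* is listed on chromosome 7 from 4433123 to 4453282, 136 kb from the end of *Ncr1*, the replaced gene, and whether this position bears on its level was not tested. Its paralogue *Ppp1r12a*, the most abundant of the group per length, had 581 ± 40.8 against 566 ± 25.8 CPM (SD, n = 5 each). The kinase genes *Pak2* and *Rock1* had 478 ± 18.7 against 459.9 ± 17.3 CPM and 399.8 ± 31.5 against 379 ± 26.6 CPM.

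With all 10 libraries and the filter on low counts, none of the remaining groups held a gene with an adjusted p under 0.05 by edgeR's quasi-likelihood test, DESeq2 or limma. The 7 tested light chains and calmodulins, which stiffen the lever arm of the motors, included 1 gene with an unadjusted p under 0.05, *Myl6*, at a log2 fold change of -0.22. The light chain gene *Myl12b* had 119 ± 5.00 against 118 ± 4.90 CPM (SD, n = 5 each). The calmodulin gene *Calm2* had 96.9 ± 4.21 against 95.7 ± 0.799 CPM.

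The 16 tested partners of the class I, IX and XVIII myosins included no gene with an unadjusted p under 0.05. The actin-binding tropomyosin gene *Tpm4* had 184 ± 12.7 against 202 ± 21.8 CPM, the adaptor gene *Sh3bp2* 242 ± 21.4 against 222 ± 15.5 CPM and *Dnm2*, a dynamin of endocytosis, 266 ± 6.38 against 274 ± 8.27 CPM (SD, n = 5 each). Of the 11 genes of granule release, all were tested and 2 had an unadjusted p under 0.05, *Lyst* with a log2 fold change of -0.27 and *Vamp7* with 0.36. Without Ncr1gfp/gfp replicate 5, the log2 fold change of *Lyst* was -0.37 (adjusted p = 0.00813 by edgeR's quasi-likelihood test). *Sytl2* and *Unc13d*, which tether and prime granules, had 470.4 ± 44.1 against 451 ± 21.1 CPM and 266 ± 20.0 against 259 ± 14.1 CPM, and *Vamp8*, a SNARE of granule fusion, lay between 43.4 and 57.2 CPM in Ncr1gfp/gfp and between 41.9 and 63.5 CPM in Ncr1+/+ libraries.

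**Figure D5:**
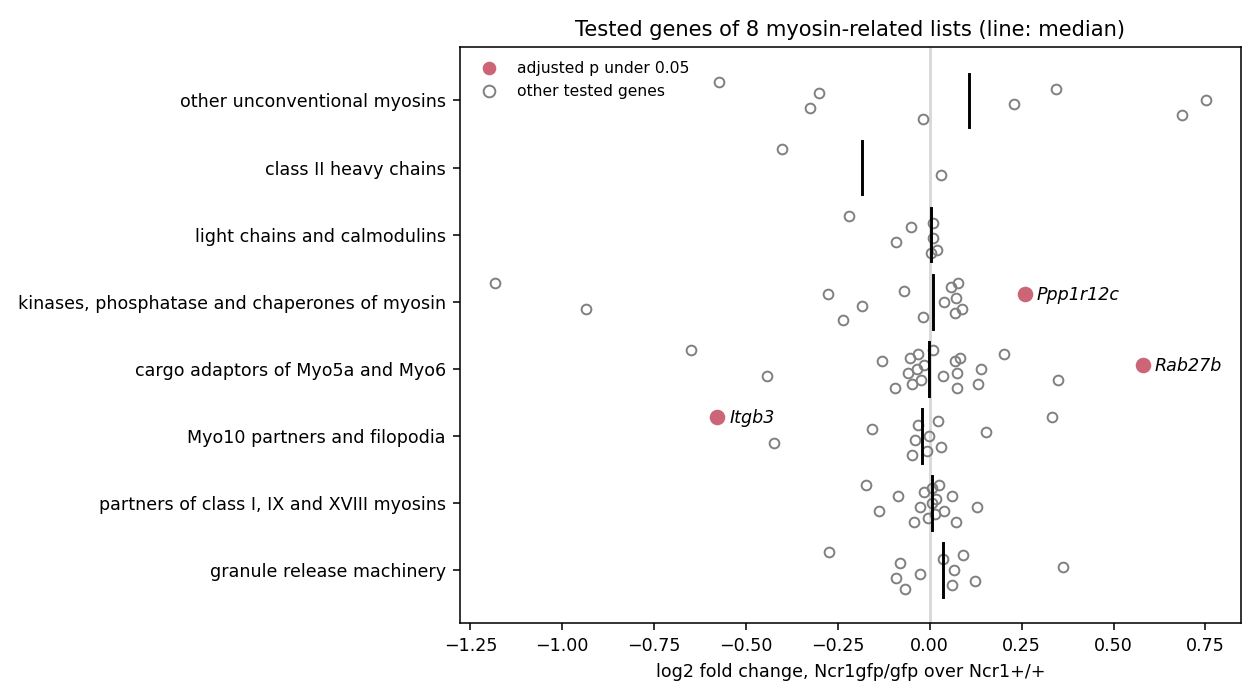
Log2 fold change of Ncr1gfp/gfp over Ncr1+/+ ILC1s (horizontal axis) for the 92 tested genes of 8 myosin-related lists. Open circles are single genes, filled circles have an adjusted p under 0.05 in edgeR's quasi-likelihood test, and the black lines are list medians. The filled genes are *Itgb3* at -0.58, *Rab27b* at 0.58 and *Ppp1r12c* at 0.26.

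The genes most like *Myo10* across the 10 libraries were ranked by Pearson's r of log2 CPM. The libraries form separate genotypes, so r includes the genotype difference and is given as a description. The highest were *Traf3ip1* with r = 0.953, *Myo5a* with 0.947, *Itgam* with 0.945, *Myadm* with 0.933 and *Cbfa2t3* with 0.931. *Itgam* encodes the integrin chain CD11b, and *Traf3ip1* a protein of the cilium transport machinery.

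After each genotype's mean was taken off, r with *Myo10* was 0.725 for *Myo5a*, 0.733 for *Traf3ip1* and 0.690 for *Itgam*. The highest values on this scale belonged to *Tmem134* at 0.904, *Atg7* at 0.881, *Bend3* at 0.877, *Ssr4* at 0.876 and *Cops9* at 0.874. The 2 rankings had no gene in common among their first 5. Of the other described myosins, *Myo6* had r = 0.592 before and -0.11 after the genotype means were taken off, and the remaining 6 lay between -0.24 and 0.367 before it and between -0.38 and 0.445 after it. *Myo1c* changed from -0.24 to 0.445 and so came next to *Myo5a* after the genotype means were taken off.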

How the data were processed

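RNA was amplified with polyA priming from 2 ng of total RNA of each sorted sample and sequenced from 1 end for 51 cycles. Reads were trimmed and mapped with STAR by the authors, who deposited HTSeq counts per gene without normalization. Reads with several matching places are not counted by HTSeq, so shared stretches of related genes go uncounted. The counts were analysed in R 4.3.3 with edgeR 4.0.16. Genes were kept by filterByExpr, scaled by TMM and tested with the quasi-likelihood test, with Benjamini-Hochberg adjustment over 11463 genes. Thresholds followed the study's methods. CPM is given on the linear scale, and correlations used log2 CPM with a prior count of 2. The step was tested on simulated counts with known fold changes. DESeq2 1.42.0 and limma 3.58.1 served as alternatives, beside other scalings, filters and left-out libraries.

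The 9 genes, the 8 lists, the cell type markers and the tests were chosen with earlier results of these data known. Named genes were the 9 members, *Ncr1*, every listed gene with an adjusted p under 0.05, the 3 most abundant genes per length of each list (2 for class II heavy chains), and the 5 genes most like *Myo10* before and the 5 after removal of genotype means. The marker genes, untested myosins, *Myl6*, *Lyst*, *Vamp7*, *Neo1*, *Unc45a* and *Dlg1* were named in addition, after their values were seen. No same-genotype pair of libraries agreed within sampling noise. Protein and promoter sequences were not used here. Some genes that these rules name are not reported here.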

Additional observations from a re-analysis of the deposited data

Results flagged for a closer look

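In 94 groups of 5 values (a gene or marker list in 1 genotype), the gap between the highest or lowest library and its nearest neighbour was compared with the range of the group, and 8 groups had 1 library that stood apart by Dixon's 95% limit. Chance alone flags about 1 in 20 groups. None of the 9 described myosins was among them. *Myo3b* was low in Ncr1gfp/gfp replicate 3, at 27.4 CPM with the nearest library at 35.7 CPM. *Myl12b* was low in Ncr1gfp/gfp replicate 5, at 110.0 CPM with the nearest at 120.1 CPM. *Rab27b* was high in Ncr1+/+ replicate 1, at 28.4 CPM with the nearest at 21.2 CPM, and *Dnm2* was high in the same library, at 288.8 CPM with the nearest at 272 CPM. The ILC1 markers summed to 3928 CPM in Ncr1gfp/gfp replicate 2, with the nearest library at 4085 CPM. The neutrophil markers summed to 10.5 CPM in Ncr1gfp/gfp replicate 3, with the nearest at 1.73 CPM. The hepatocyte markers summed to 64.4 CPM in Ncr1gfp/gfp replicate 3 and 33.1 CPM in Ncr1+/+ replicate 1, with the nearest library of the same genotype at 5.59 and 5.91 CPM.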

How the results depend on the processing

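The *Myo10* log2 fold change was between 0.82 and 1.03 in 18 alternative fits and was called in all 18. *Myo5a* was between 0.55 and 0.69 and was called in 15, the exceptions being 3 fits with 1 library removed. The other 7 myosins were called in none of the 18. The sign changed for the values near 0, with *Myo18a* above 0 in 5, *Myo1g* above 0 in 6 and *Myo9b* below 0 in 2 of them. Without a filter on low counts, 131 genes were called in place of 84, and 5 listed partner genes in place of 3 had an adjusted p under 0.05, *Lyst* and *Neo1* being added. *Neo1* rested on 1 library, with 2.97 CPM in Ncr1+/+ replicate 1, one of those with high hepatocyte markers, and at most 0.218 CPM in the others. With an absolute log2 fold change above 1 required, 23 genes and 0 of the 9 myosins were called, since *Myo10* and *Myo5a* lie below that limit. With each library left out in turn, 60 to 98 genes, 1 to 2 of the 9 myosins and 1 to 2 listed partner genes passed, and the cause was not tested. The most genes were called without Ncr1gfp/gfp replicate 5 (98) and without Ncr1+/+ replicate 5 (94). DESeq2 called 126 genes and limma 77, and each called 2 of the 9 myosins. Of the 5 genes most like *Myo10* by Pearson's r, 2 were also among the first 5 by Spearman's rho.

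Samples with the same replicate number did not deviate together, with correlations between -0.017 and 0.0442, and 1 of 5 numbers correlated best with itself, so the numbers name samples only. With the replicate block, 87 genes and 2 of the 9 myosins were called, and 1 listed partner gene had an adjusted p under 0.05 in place of 3, the values of *Rab27b* and *Ppp1r12c* being 0.0536 and 0.0701 (edgeR's quasi-likelihood test). The cause was not tested. The 9 myosins had at least 353 counts in every library, whereas *Myo1a*, *Myo15*, *Myo18b* and *Myh10* had at most 59, so that counting error is larger for them.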
